A study of Mus musculus with 12 samples.

Results

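The genes described here are 34 of the 32285 genes counted in single-cell RNA libraries from mouse melanoma: 18 genes of glycolysis and 16 genes of the hypoxia response. The rule names the genes and uses no measured value, but the lists were drawn up with earlier results of these data known. The 2 lists are kept apart throughout, and each gene is followed across the deposited cell type labels, the deposited cluster numbers and the mice. Glucose enters a cell through transporters of the SLC2A family and is broken down to pyruvate by a chain of cytosolic enzymes, and pyruvate is then either reduced to lactate and exported or taken into mitochondria. Hypoxia-inducible factor 1, of which HIF1A is the oxygen-regulated subunit, is destroyed when oxygen is plentiful. When oxygen is short it turns on most of the glycolytic genes together with genes for mitochondrial clearance, angiogenesis and its own negative feedback; activated T cells and NK cells also raise glycolysis through growth factor signalling that passes through phosphoinositide 3-kinase.

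The samples were 6 tumours, each from a different mouse. All mice were of the strain B6.129S7-Rag1tm1Mom/J, which lacks mature T and B cells of its own, all carried B16-F10 melanoma placed in the skin, and all were given Pmel Thy1.1 CD8+ T cells, whose receptor recognises the melanocyte protein gp100. Before transfer the T cells given to 3 mice were cultured with CAL-101, also named idelalisib, a drug that blocks the p110-delta form of phosphoinositide 3-kinase. Those given to the other 3 mice, called control, were cultured with vehicle. NK cells, neutrophils, monocytes and dendritic cells belong to the host in both groups and were not in these cultures. Live CD45.2+ cells were sorted from each tumour.

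The deposited tables labelled 45477 cells, of which 32861 carried a T cell label (3 labels, merged here) and 11687 the label of NK cells. Each library held 6152 to 9147 cells and 75716841 to 97933109 RNA unique molecular identifiers (UMIs), and pairs of libraries shared 8 to 31 cell barcodes. Levels below are in CPM, the usual per-library scale of count data: the UMIs of a gene over all UMIs of the summed cells of a mouse. Control mouse 2 stood apart from the other control mice: the chi-square of its T cell sums against theirs, divided by its degrees of freedom, came to 45.3 and 39.4, beside 8.54 for control mice 1 and 3. All 10 T cell markers listed exceeded 5 CPM in T-labelled cells, and all 10 NK cell markers did so in NK-labelled cells. The same level was also passed by all but 1 of the 10 NK cell markers in T-labelled cells, the highest being Fcer1g at 90.9 CPM, and by all but 1 of the 10 T cell markers in NK-labelled cells, led by Trbc2 at 702 CPM. In each mouse, however, 2.17 to 16.6% of T-labelled cells lay in clusters 0, 7, 8, 9 and 13, which hold most NK-labelled cells.

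All 34 genes had UMIs in T cells, and all passed the filter on low counts there. Adm, which encodes the vasodilator peptide adrenomedullin, did so at under 1 CPM in every mouse and did not pass the filter in NK cells, which left 33 genes tested in that class. A second row of the table that also bears the symbol Aldoa was not counted as a member. In sums of cells, a smaller number of cells expressing a gene and less RNA in each of them cannot be told apart.

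T cells from mice given CAL-101-exposed cells had less RNA of a subset of both lists. Among glycolysis genes, the glucose transporter Slc2a3, the regulator Pfkfb3, the aldolase Aldoc and pyruvate kinase Pkm fell and the phosphofructokinase Pfkl rose, and 13 of 18 did not pass the test. Among hypoxia genes, Ndrg1, Ero1l, Vegfa, Bnip3l and Ddit4 fell, none rose, and 11 of 16 did not pass. Over all 16734 genes tested in T cells, 19.1% were called at an adjusted p under 0.05 by edgeR, 9.46% as higher and 9.63% as lower in the CAL-101 group. The median log2 fold change was -0.13 for the glycolysis list and -0.23 for the hypoxia list, beside 0.0020 over all genes tested, and 14 of 18 and 13 of 16 genes had a log2 fold change below 0. In 6 glycolysis and 5 hypoxia genes the groups of mice did not overlap, as was so for 39.6% of all genes.

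Markers of other cell types moved in the same T cell sums. NK cell markers made up 0.0289, 0.0484 and 0.0369% of UMIs in control mice, against 0.0322, 0.0166 and 0.0144% in CAL-101 mice. Of the 10, 9 had a log2 fold change below 0, with a median of -1.05, and 1 was called, Fcer1g at -1.16. Of 8 monocyte and macrophage markers tested, C1qa, C1qb and Lyz2 rose by 3.39, 2.56 and 2.42 on the log2 scale and Ccr2 fell by 0.96, while their summed share overlapped, at 0.0524 to 0.0758% in control mice and 0.0607 to 0.0888% in CAL-101 mice. Il1r2 of the neutrophil list, H2-Ab1 of the dendritic cell list and Cd79b of the B cell list were also called lower. Their log2 fold changes were -1.21, -0.99 and -1.30, and no other tested marker of those lists was called. None of the NK or monocyte and macrophage markers was at 0 in T-labelled cells. Of the 10 listed monocyte and macrophage markers, however, 8 were under 5 CPM there. Ly6c2, at 662 CPM, makes up most of their summed share, which therefore says little about the others. Of the genes that fell, Pkm, Aldoc, Ndrg1, Bnip3l and Vegfa had more RNA in NK cells than in T cells. With T cells of clusters 1 to 5 alone, Pkm, Aldoc, Ndrg1 and Bnip3l had log2 fold changes of -0.37, -1.10, -0.96 and -0.32 and all 4 were called, whereas Vegfa was not. Ero1l, which also fell, had more RNA in neutrophils than in T cells. The part of macrophage or neutrophil RNA in the result was not tested.

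The first step of glycolysis is transport. Slc2a3 encodes GLUT3, a high-affinity glucose transporter, and its level in T cells was 222, 157 and 215 CPM in control mice 1, 2 and 3, against 118, 141 and 132 CPM in CAL-101 mice 1, 2 and 3, the order used throughout. All control mice lay above all CAL-101 mice, with control mouse 2 nearest to them. Slc2a3 fell by 0.64 on the log2 scale (SE 0.13, adjusted p = 0.012). Slc2a1, which encodes GLUT1, the other main glucose transporter of lymphocytes, was at 69.8, 60.0 and 73.4 CPM in control mice, against 62.2, 68.0 and 67.5 CPM in CAL-101 mice. The groups overlapped, and its log2 fold change was -0.08 (SE 0.08, adjusted p = 0.53).

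Hexokinases trap glucose by phosphorylation. Hk2, the inducible form, was at 39.1, 59.4 and 38.0 CPM in T cells of control mice, against 56.9, 50.4 and 48.6 CPM in those of the CAL-101 mice. Control mouse 2 was the highest of the 6 and the other control mice the lowest, so the groups overlapped, and the log2 fold change was 0.15 (SE 0.16, adjusted p = 0.55). Without control mouse 2 it was 0.39, and Hk2 was called higher (adjusted p = 0.0079). Hk1, the constitutive form, had a log2 fold change of -0.04 (SE 0.06).

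Phosphofructokinase commits sugar phosphate to glycolysis, and 2 genes that act on this step moved in opposite directions. Pfkl, the liver-type subunit of the enzyme, was at 39.6, 37.4 and 36.4 CPM in control mice, against 46.4, 45.7 and 50.9 CPM in CAL-101 mice, so that every CAL-101 mouse was above every control mouse. It rose by 0.29 (SE 0.07, adjusted p = 0.021). Pfkfb3, which makes the fructose 2,6-bisphosphate that activates phosphofructokinase, was at 56.9, 57.0 and 64.7 CPM in control mice, against 50.5, 52.1 and 48.5 CPM in CAL-101 mice. Again the groups did not overlap, and Pfkfb3 fell by 0.28 on the log2 scale (SE 0.06, adjusted p = 0.020). Pfkp, the platelet-type subunit, had a log2 fold change of 0.14 (SE 0.09, adjusted p = 0.29).

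The lower part of the pathway splits the sugar and yields ATP and pyruvate. Pkm, the pyruvate kinase of most non-hepatic cells, was at 352, 322 and 303 CPM in control mice, against 244, 269 and 263 CPM in CAL-101 mice. The groups did not overlap, and Pkm fell by 0.37 on the log2 scale (SE 0.07, adjusted p = 0.011). Aldoc, a minor aldolase of leukocytes, was at 14.7, 9.06 and 16.2 CPM in control mice, against 4.23, 9.41 and 5.84 CPM in CAL-101 mice; CAL-101 mouse 2 lay just above control mouse 2, so the groups overlapped. Aldoc fell by 1.07 on the log2 scale (SE 0.30, adjusted p = 0.039). The enolase Eno1 and the dehydrogenase Gapdh had log2 fold changes of -0.44 (SE 0.13) and -0.31 (SE 0.11), with adjusted p-values of 0.052 and 0.081.

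Ldha, the lactate dehydrogenase subunit that makes lactate from pyruvate, was at 1019.6, 943 and 929.9 CPM in T cells of control mice, against 902, 841 and 956 CPM in those of the CAL-101 mice. CAL-101 mouse 3 lay within the control range, and the log2 fold change was -0.14 (SE 0.07, adjusted p = 0.21). The lactate exporter Slc16a3 had a log2 fold change of -0.03 (SE 0.13). The other glycolysis genes, which are the isomerases Gpi1 and Tpi1, the aldolase Aldoa, the kinase Pgk1 and the mutase Pgam1, had log2 fold changes from -0.25 for Pgk1 to 0.09 for Pgam1 and none was called.

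**Figure D1:**
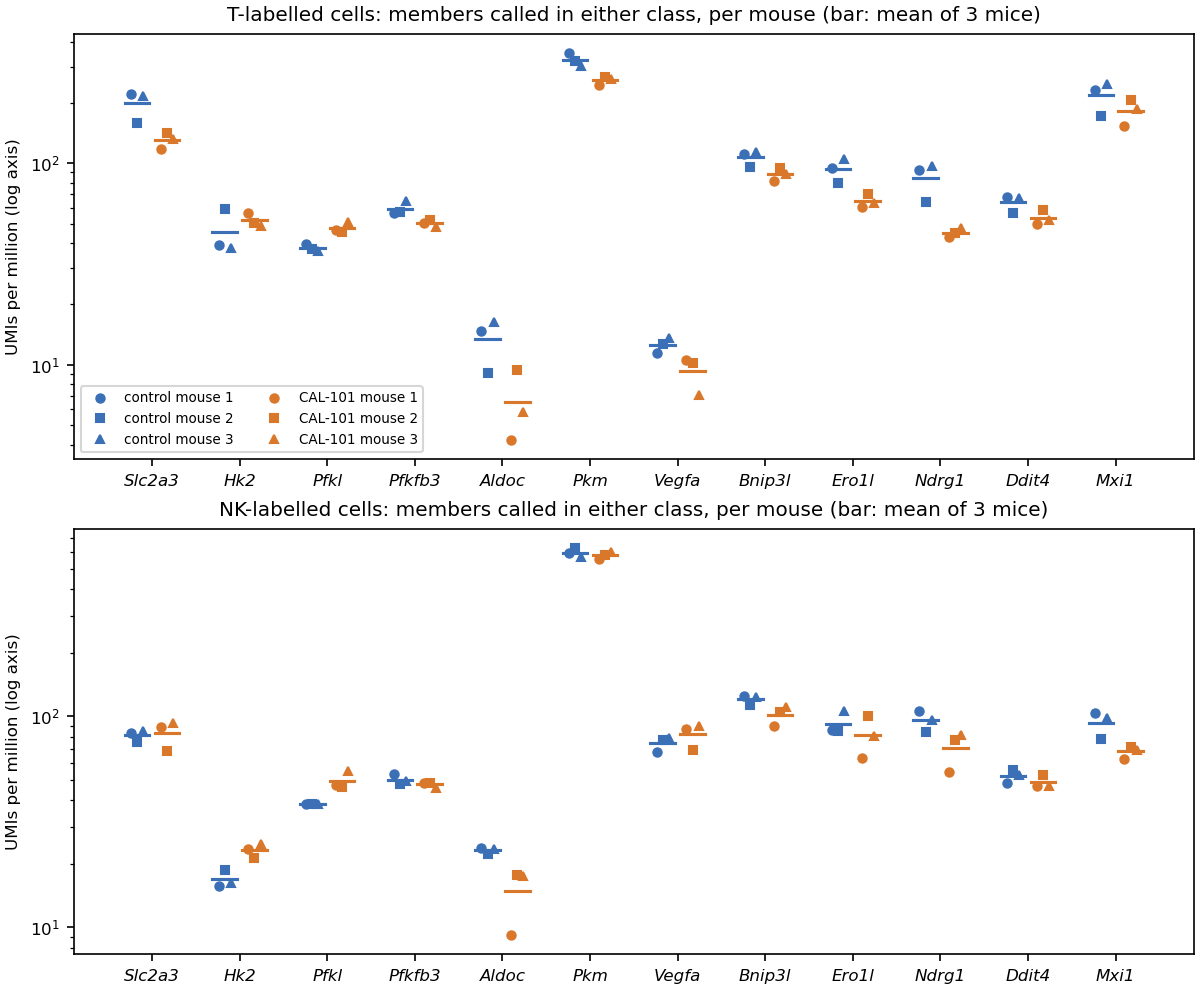
Levels of the 12 genes called in T or NK cells, in CPM on a log axis, for T-labelled cells (top) and NK-labelled cells (bottom); each symbol is 1 mouse, blue for control and orange for CAL-101, and the bar is the mean of 3 mice. In T cells the Ndrg1 symbols of the CAL-101 mice lie close together below 50 CPM, while control mouse 2 (square) lies below the other control mice for Slc2a3, Aldoc, Ero1l and Ndrg1.

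Of the hypoxia list, Ndrg1 differed most clearly. It encodes a cytoplasmic protein induced by hypoxia and by differentiation, and it stood at 92.2, 63.9 and 97.3 CPM in T cells of control mice, against 42.9, 45.0 and 47.8 CPM in those of the CAL-101 mice. The CAL-101 mice were nearly alike and all below the lowest control, mouse 2. Ndrg1 fell by 0.94 on the log2 scale (SE 0.14, adjusted p = 0.0042), and with each mouse left out in turn it stayed past the threshold, at log2 fold changes of -1.10 to -0.83.

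Ero1l, the endoplasmic reticulum oxidoreductase that helps form disulfide bonds, was at 94.3, 79.9 and 105 CPM in control mice, against 60.7, 70.6 and 63.5 CPM in CAL-101 mice. The groups did not overlap, and Ero1l fell by 0.56 on the log2 scale (SE 0.10, adjusted p = 0.0082). Bnip3l, a receptor for the autophagy of mitochondria, was at 112, 95.2 and 114 CPM in control mice, against 81.5, 94.7 and 88.1 CPM in CAL-101 mice. CAL-101 mouse 2 came within 1 CPM of control mouse 2, and Bnip3l fell by 0.32 on the log2 scale (SE 0.08, adjusted p = 0.033). Its relative Bnip3, also a mitophagy receptor and the more strictly hypoxia-dependent of the pair, was at 40.2, 19.96 and 43.5 CPM in control mice, against 19.3, 35.2 and 27.3 CPM in CAL-101 mice. Those groups overlapped widely, and the log2 fold change of Bnip3 was -0.38 (SE 0.29, adjusted p = 0.40). Without control mouse 2 it was -0.65 and Bnip3 was called lower (adjusted p = 0.048).

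Ddit4, which encodes the mTORC1 inhibitor REDD1, was at 68.2, 56.8 and 66.9 CPM in control mice, against 50.03, 58.7 and 52.0 CPM in CAL-101 mice. The groups overlapped, as CAL-101 mouse 2 was above control mouse 2, and Ddit4 fell by 0.29 on the log2 scale (SE 0.09, adjusted p = 0.049). Vegfa, the main angiogenic growth factor, was at 11.4, 12.7 and 13.5 CPM in control mice, against 10.6, 10.2 and 7.08 CPM in CAL-101 mice. It fell by 0.48 on the log2 scale (SE 0.14, adjusted p = 0.0496), and the groups did not overlap. Vegfa RNA was far higher in NK cells. The share of T-labelled cells in clusters 0, 7, 8, 9 and 13 was 7.97, 16.6 and 9.78% in control mice, against 9.32, 2.17 and 3.46% in CAL-101 mice. With T cells of clusters 1 to 5 alone, the log2 fold change of Vegfa was -0.14 (adjusted p = 0.78).

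Hif1a itself was at 363, 377 and 356 CPM in T cells of control mice, against 413, 394 and 381 CPM in those of the CAL-101 mice. The groups did not overlap, but the log2 fold change was 0.08 (SE 0.05, adjusted p = 0.36). Pdk1, the kinase that shuts pyruvate dehydrogenase, was at 26.1, 19.4 and 23.9 CPM in control mice, against 20.1, 22.2 and 21.4 CPM in CAL-101 mice, with overlapping groups and a log2 fold change of -0.17 (SE 0.10, adjusted p = 0.31). Pdk1 was called lower without control mouse 2, at -0.27 (adjusted p = 0.034). Egln3, the prolyl hydroxylase PHD3 that is itself a HIF target, was at 25.6, 13.2 and 24.1 CPM in control mice, against 17.5, 23.9 and 21.6 CPM in CAL-101 mice. The means of the groups were both 21.0 CPM, and the log2 fold change of Egln3 was -0.04 (SE 0.23, adjusted p = 0.92).

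The remaining hypoxia genes were not called in T cells. Mxi1, an antagonist of MYC, had a log2 fold change of -0.30 (SE 0.15), Egln1, the main oxygen-sensing prolyl hydroxylase, one of -0.14 (SE 0.10), and P4ha1, a collagen prolyl hydroxylase, one of 0.08 (SE 0.08). Ankrd37 was at 0.07 (SE 0.16), the lipid droplet protein gene Hilpda at -0.04 (SE 0.18) and the mitochondrial gene Higd1a at -0.01 (SE 0.07). Adm, at under 1 CPM, had a log2 fold change of -0.63 (SE 0.59).

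**Figure D2:**
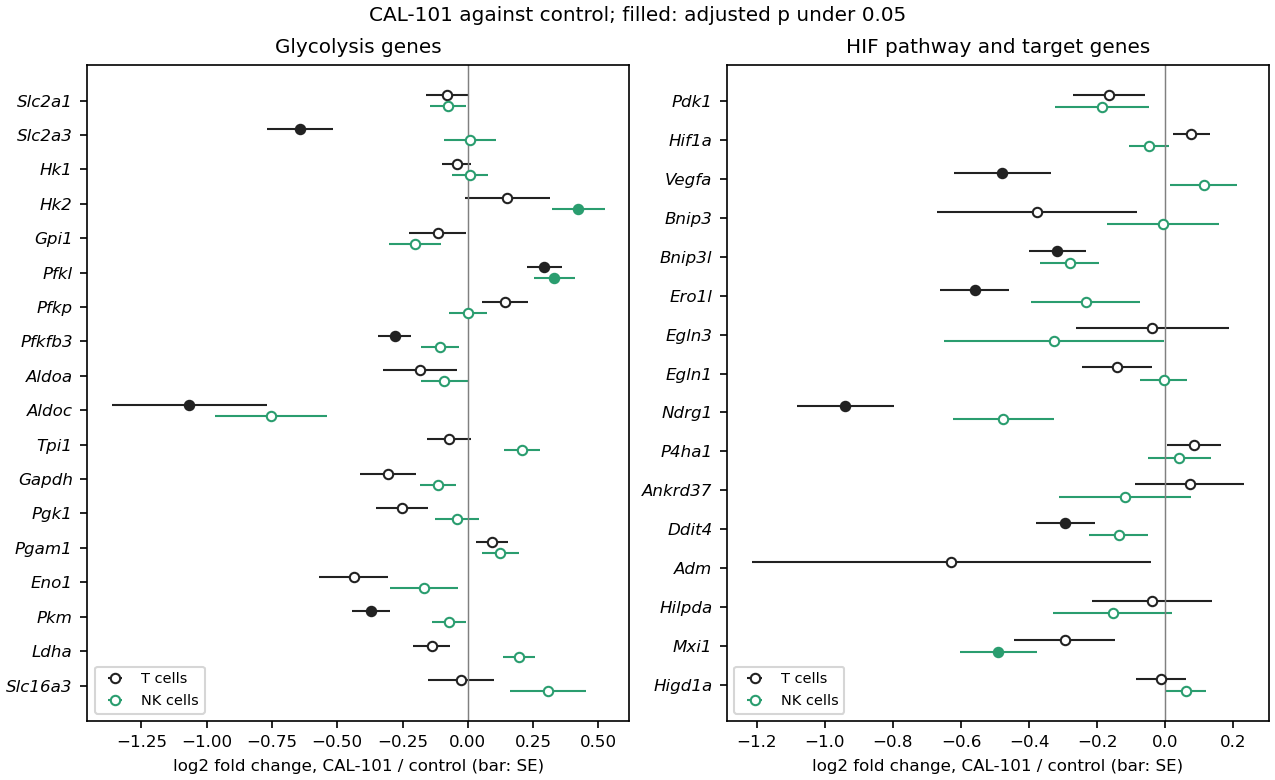
Log2 fold change between the CAL-101 and control groups with its standard error, for glycolysis genes (left) and hypoxia genes (right), in T cells (black) and NK cells (green); filled symbols have an adjusted p under 0.05. Ndrg1, Aldoc and Slc2a3 lie farthest below 0 among the called genes of T cells, and Pfkl lies above 0 in both classes, at 0.29 and 0.33.

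The calls in T cells rested in part on single mice. Leaving out control mouse 3 left 1 glycolysis and 2 hypoxia genes called, when 8.33% of all genes were called, and leaving out control mouse 2 gave 10 and 7, when 22.4% were. Pkm, Ero1l and Ndrg1 were called with every mouse left out in turn, Slc2a3 in 5 of 6 such fits, Pfkl in 4, Pfkfb3 in 3, Aldoc, Bnip3l and Ddit4 in 2 and Vegfa in 1.

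The clusters of T cells differed in size between the groups. Cluster 3 held 31.8, 20 and 30.1% of T cells in control mice, against 4.31, 10.5 and 7.39% in CAL-101 mice, and cluster 5 held 3.00, 2.24 and 1.65% against 22.2, 21.3 and 22.0%. The glycolysis list made up 0.773% of UMIs in cluster 3 (SD 0.0623 over 6 mice) and 0.620% in cluster 5 (SD 0.0515). The comparison was therefore also made within each cluster, over the T-labelled cells of clusters 1 to 5.

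Ndrg1 fell in all 5 of these clusters. Its mean was 99.8 ± 9.11 CPM in control mice, against 65.7 ± 2.00 CPM in CAL-101 mice in cluster 1, 75.4 ± 19.3 against 40.2 ± 3.57 in cluster 2, and 88.5 ± 21.8 against 58.4 ± 4.996 in cluster 3 (SD, n = 3 mice). In cluster 4 the means of Ndrg1 were 96.1 ± 26.3 and 55.4 ± 5.03 CPM, and in cluster 5 they were 57.5 ± 4.89 and 38.5 ± 2.03 CPM. The groups of mice did not overlap in any of the 5 clusters, although control mouse 2 was within 2 CPM of CAL-101 mouse 2 in cluster 3. The log2 fold changes of Ndrg1 were -0.64, -0.96, -0.66, -0.80 and -0.63 in clusters 1 to 5, with adjusted p-values of 0.0014, 0.0096, 0.043, 0.0087 and 0.0056. With each mouse left out in turn, the call held in all 6 fits in clusters 1, 2 and 5 and in 5 in cluster 4. In cluster 3 it held in 1 of 6, the fit without control mouse 2.

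The other genes were called in fewer clusters. Genes called lower numbered 8 of 33 tested in cluster 1, where 11.9% of all genes were called, 5.72% as higher and 6.13% as lower, and 9 of 33 in cluster 2, where the shares were 12.6, 5.94 and 6.69%. They numbered 1 of 33 in cluster 3, beside 6.74, 3.26 and 3.47% of all genes. They numbered 6 of 33 in cluster 4, beside 8.33, 3.68 and 4.65%, and 6 of 33 in cluster 5, beside 5.25, 2.45 and 2.8%. Pfkl in cluster 2 was the only gene of either list called higher in a T cell cluster, at a log2 fold change of 0.28 (adjusted p = 0.035).

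Slc2a3 fell in clusters 1, 2 and 4, by 0.65, 0.59 and 0.54 on the log2 scale, and Eno1 fell in the same clusters by 0.61, 0.46 and 0.47. Gapdh fell in clusters 1, 2, 4 and 5, by 0.52, 0.31, 0.46 and 0.31, although neither Eno1 nor Gapdh was called over all T cells. Pkm fell in cluster 2 by 0.38 and in cluster 5 by 0.40, and Aldoc fell in cluster 2 by 1.01. Ldha, called in no other cluster, fell in cluster 5 by 0.27, a call that held in none of the 6 fits without a mouse.

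Among hypoxia genes, Ero1l fell in clusters 1, 2 and 4 by 0.45, 0.50 and 0.53 on the log2 scale. Ddit4 fell in clusters 1, 2 and 5 by 0.36, 0.33 and 0.61, and Bnip3l fell in clusters 1 and 2 by 0.45 and 0.31. Egln1 fell by 0.35 in cluster 1, Mxi1 by 0.42 in cluster 4 and Pdk1 by 0.45 in cluster 5, a call that also held in 0 of the 6 fits without a mouse. Of the 31 calls in T cell clusters, 8 held in all 6 such fits and 20 in 3 or fewer, and the 6 calls of cluster 5 fell to between 1 and 4. Over the 9 clusters fitted, which include 4 of NK cells, 34 pairs of a gene and a cluster were called; the number ranged from 11 without CAL-101 mouse 3 to 62 without control mouse 2.

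**Figure D3:**
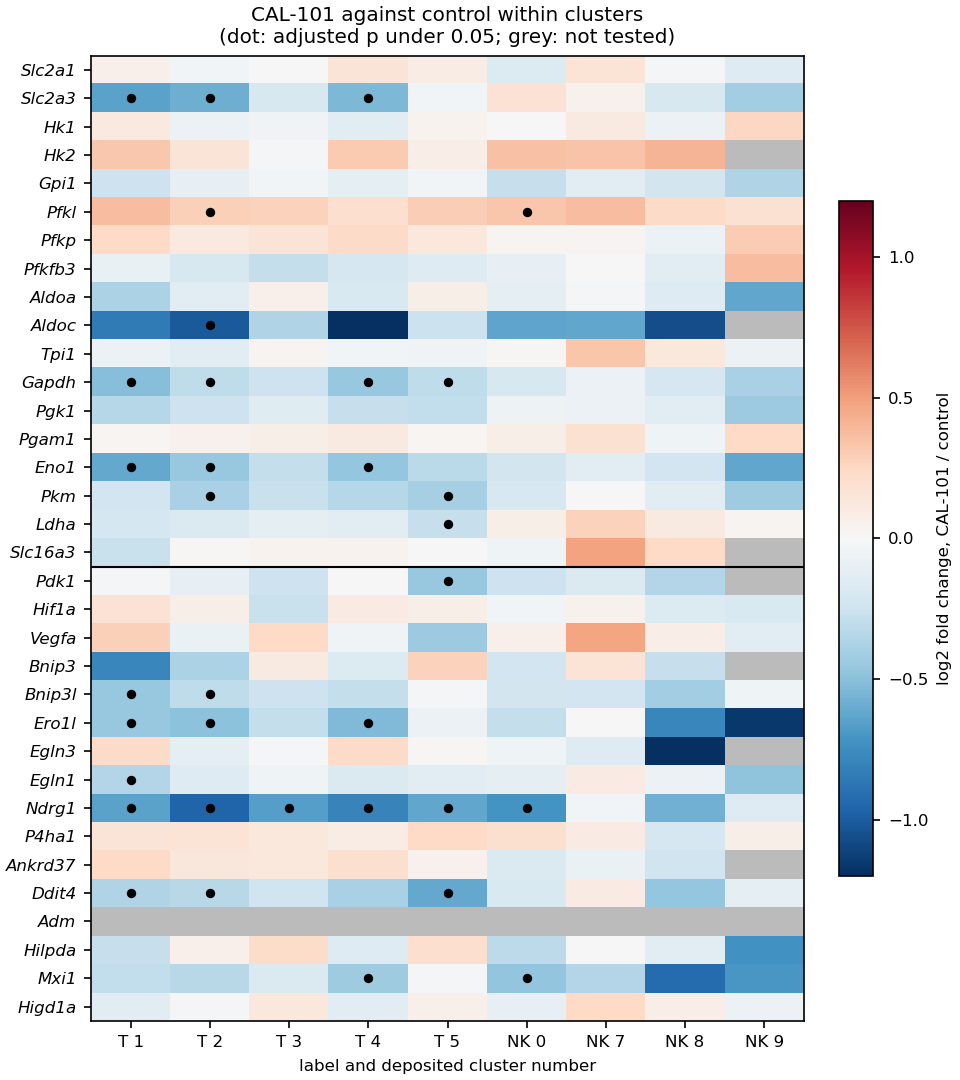
Log2 fold change between the CAL-101 and control groups within 9 clusters, 5 of T-labelled and 4 of NK-labelled cells, for glycolysis genes (above the line) and hypoxia genes (below it); red is higher and blue lower in the CAL-101 group, a dot marks an adjusted p under 0.05 and grey a gene that was not tested. The row of Ndrg1 carries a dot in T cell clusters 1 to 5 and NK cell cluster 0, and Adm was tested in no cluster.

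NK cells are host cells and were not in the drug culture. Of the 18 glycolysis genes, Hk2 and Pfkl rose and 16 did not pass; of the 15 hypoxia genes tested, Mxi1 fell and 14 did not pass. Over all 14028 genes tested in NK cells 4.89% were called, 2.97% as higher and 1.92% as lower. The median log2 fold change was -0.02 for the glycolysis list and -0.14 for the hypoxia list, beside -0.0011 over all genes. The groups of mice did not overlap in 6 glycolysis and 4 hypoxia genes, and in 26.8% of all genes.

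Hk2 was at 15.7, 18.7 and 16.3 CPM in NK cells of control mice, against 23.6, 21.2 and 24.8 CPM in those of the CAL-101 mice. Every CAL-101 mouse was above every control mouse, and Hk2 rose by 0.42 on the log2 scale (SE 0.10, adjusted p = 0.044). Pfkl was at 38.4, 38.5 and 38.6 CPM in control mice, against 47.2, 46.4 and 55.0 CPM in CAL-101 mice, again without overlap, and rose by 0.33 (SE 0.08, adjusted p = 0.045). Mxi1 was at 104, 77.8 and 98.5 CPM in control mice, against 63.1, 71.8 and 69.6 CPM in CAL-101 mice, and it fell by 0.49 on the log2 scale (SE 0.11, adjusted p = 0.040).

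Each of these 3 calls was lost in 5 of the 6 fits that left out a mouse, and over all genes those fits called between 4 and 1589. Cycling cluster 8 held 4.392, 7.004 and 4.896% of NK cells in control mice, against 10.21, 9.807 and 10.15% in CAL-101 mice. Without that cluster none of the 3 genes was called, while 345 of all genes were, against 686 with it. How far the size of this cluster accounts for the 3 calls was not tested. CAL-101 mice 2 and 3 gave 571 and 916 NK cells, against 2047 to 3498 in the other mice. Of the T cell markers in these NK sums, edgeR called only Cd5, higher by 0.97 on the log2 scale (adjusted p = 0.033). Cd8a had a log2 fold change of 0.62 (adjusted p = 0.057), and Trbc1, Cd8b1 and Cd3d were below 0. Hk2 had more RNA in T cells than in NK cells, and the part of T cell RNA in the NK result was not tested. Melanoma markers stood at 0.00863% of NK cell UMIs in CAL-101 mouse 1, against 0.000451 to 0.00171% in the other mice, and 3 of the 5 such markers tested were called higher. Without cluster 12 and cells with 2 or more melanoma marker UMIs, neither Hk2 (log2 fold change 0.38, adjusted p = 0.068) nor Pfkl (0.32, adjusted p = 0.061) was called, and Mxi1 was (-0.49, adjusted p = 0.035).

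Ndrg1 was at 106, 84.5 and 96.5 CPM in NK cells of control mice, against 54.3, 77.5 and 81.3 CPM in those of the CAL-101 mice. The groups did not overlap, but its log2 fold change of -0.48 (SE 0.15) had an adjusted p of 0.099. Within NK cluster 0 alone, where 4.9% of all genes were called, 2.14% as lower, Ndrg1 fell by 0.72 on the log2 scale (SE 0.14, adjusted p = 0.0076), from 105 ± 13.6 to 68.9 ± 17.3 CPM (SD, n = 3 mice). Mxi1 also fell in cluster 0, by 0.47 (adjusted p = 0.021), and Pfkl rose there by 0.33 (adjusted p = 0.044). Leaving out CAL-101 mouse 1 ended the Ndrg1 call (-0.50, adjusted p = 0.090), the Mxi1 call held in 2 of 6 such fits and the Pfkl call in 0. No gene of either list was called in NK clusters 7, 8 and 9, where edgeR called 88, 9 and 36 of all genes (0.799, 0.0977 and 0.767%) and 10, 9 and 6 of the listed genes had an unadjusted p under 0.05, beside 16.6, 10.4 and 10.5% of all genes.

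Other NK values are given for the genes described in T cells. Slc2a1 was at 88.5, 84.3 and 89.7 CPM in control mice, against 80.2, 84.0 and 90.5 CPM in CAL-101 mice, with a log2 fold change of -0.08 (SE 0.07). Ldha was at 672, 722 and 652 CPM in control mice, against 785, 791 and 817 CPM in CAL-101 mice, without overlap, and its log2 fold change was 0.20 (SE 0.06, adjusted p = 0.10). Hif1a, Bnip3, Ddit4 and Pdk1 had log2 fold changes of -0.05, -0.01, -0.14 and -0.19 in NK cells, with overlapping groups and adjusted p-values of 0.69, 0.99, 0.40 and 0.47.

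Whether the effect differed between T and NK cells was tested on the difference between the classes within each mouse, with limma. None of the 33 genes tested was called, while 0.906% of all 13901 genes were, and 7 of the 33 had an unadjusted p under 0.05, beside 17.1% of all genes. The smallest p was that of Pkm, whose effect was lower in T than in NK cells by a log2 of -0.29 (SE 0.08, unadjusted p = 0.014, adjusted p = 0.19). Slc2a3, which fell in T cells and had a log2 fold change of 0.01 in NK cells, had a difference of -0.61 (SE 0.18, adjusted p = 0.20). The difference for Ndrg1 was -0.44 (SE 0.17, adjusted p = 0.28).

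The levels of the 2 lists in T and NK cells of the same mouse differed gene by gene rather than as a block. With the mouse as a term, edgeR called 15 of 18 glycolysis genes, 10 higher in T cells and 5 higher in NK cells, and 9 of 16 hypoxia genes, 6 and 3. Over all 15733 genes 61.8% were called, 31.2% as higher and 30.6% as lower in T cells. The cell labels were made by the authors from the same cells, so that the values describe labelled classes.

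Hk2 showed the largest ratio in favour of T cells in the glycolysis list, with 48.7 ± 8.84 CPM in T cells and 20.1 ± 3.77 CPM in NK cells (SD, n = 6 mice). The log2 ratio was 1.27 (SE 0.08, adjusted p = 1.1e-06), and every mouse had more in T cells. Slc2a3 followed at 0.94 (SE 0.13), with 164 ± 43.9 and 82.5 ± 9.04 CPM. Slc16a3, Gapdh, Hk1, Ldha, Pgam1, Pgk1, Tpi1 and Pfkfb3 were also higher in T cells, by log2 ratios of 0.14 to 0.44.

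Pkm was the gene of the glycolysis list with the largest ratio in favour of NK cells. Its level in NK cells was 591, 627 and 569 CPM in control mice, against 554, 584 and 597 CPM in CAL-101 mice, all above the highest T cell value of 352 CPM, at a log2 ratio of -1.04 (SE 0.06, adjusted p = 8.5e-07). Aldoc, at -1.03, Slc2a1, at -0.39, Eno1, at -0.29, and Aldoa, at -0.20, were also higher in NK cells. The glucose transporters thus split, with Slc2a3 higher in T cells and Slc2a1 higher in NK cells.

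Vegfa showed the largest difference of all listed genes. It was at 67.7, 77.2 and 79.0 CPM in NK cells of control mice, against 87.5, 68.9 and 89.9 CPM in those of the CAL-101 mice, against 7.08 to 13.5 CPM in T cells. The log2 ratio was -2.88 (SE 0.14, adjusted p = 2.9e-07). Ndrg1 and Bnip3l were also higher in NK cells, by -0.43 and -0.21.

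Egln3 had the largest hypoxia-list ratio in favour of T cells. Its NK cell level was 7.98, 5.37 and 12.9 CPM in control mice, against 5.34, 8.34 and 8.39 CPM in CAL-101 mice, and the log2 ratio was 1.37 (SE 0.11, adjusted p = 4.3e-06). Mxi1 at 1.28, Hif1a at 0.58, Pdk1 at 0.38, Egln1 at 0.29 and Ddit4 at 0.19 were also higher in T cells. Hif1a stood at 381 ± 20.8 CPM in T cells and 250.2 ± 8.58 CPM in NK cells (SD, n = 6 mice).

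Across the 10 clusters with at least 30 cells in every mouse, the glycolysis genes did not share a single profile. Their profiles did not divide cleanly by step of the pathway. These levels describe clusters built from the same cells and are given without a test. They sum all cells of a cluster, whatever their label. T-labelled cells numbered 1264 of 8735 in cluster 0 and 159 of 2036 in cluster 7. In clusters 8 and 9 they numbered 597 of 1417 and 481 of 1284. The transporter Slc2a3, both hexokinases, Pfkp, Pfkfb3 and the exporter Slc16a3 were highest in T cell clusters 1 or 4. Aldoa, Tpi1, Gapdh, Pgk1, Pgam1, Eno1, Pkm and Ldha, the enzymes from aldolase to lactate dehydrogenase, were highest in clusters 7, 2 or 3. Slc2a1 was highest in NK cluster 9, and Gpi1, Pfkl and Aldoc in NK cluster 7.

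Cluster 1 had the lowest level of Tpi1, Gapdh, Pgam1, Eno1, Pkm and Ldha among the 10 clusters, cluster 4 that of Aldoa and cluster 9 that of Pgk1. Gapdh stood at 2720 ± 321 CPM in cluster 3 and 737 ± 172 CPM in cluster 1, and Pkm at 782 ± 37.8 CPM in cluster 7 and 125 ± 14.3 CPM in cluster 1 (SD, n = 6 mice). Hk2 was reversed in order, with 85.8 ± 18.8 CPM in cluster 4, 76.2 ± 15.6 CPM in cluster 1 and 17.02 ± 3.44 CPM in cluster 0. The neighbours in each order often did not differ beyond their spread, as for Gapdh in clusters 3 and 2, at 2720 and 2715 CPM.

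The clusters with little RNA of the lower enzymes were also those with few UMIs. The median cell held 2823 UMIs in cluster 1, 4762 in cluster 4 and 2066.5 in cluster 9, against 13680.5 to 25738 in T cell clusters 2, 3 and 5. Mitochondrial genes gave 13.2% of UMIs in the median cell of cluster 1 and 16.3% in cluster 4, against 2.90 to 3.14% in those 3 clusters. The nuclear RNA Malat1 stood at 14028 ± 1163 CPM in cluster 1, 10956 ± 1038 in cluster 4 and 24619.5 ± 3357 in cluster 9, against 3635 to 4639 CPM in clusters 2, 3 and 5. Whether cell damage has a part in these profiles was not tested.

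Hypoxia genes did not follow 1 order either. Hif1a and Mxi1 were highest in cluster 1, at 609 ± 58.6 and 315 ± 41.5 CPM, in each of the 6 mice ahead of cluster 4. Ero1l was highest in NK cluster 7, at 139 ± 17.3 CPM, and above cluster 3 in all 6 mice. Vegfa was above 50 CPM in all of NK clusters 0, 7, 8 and 9 and under 10 CPM in T cell clusters 1 to 5. Bnip3, Egln3 and Hilpda had their highest or second highest level in cluster 3, where Bnip3 was at 43.0 ± 11.8 CPM and did not differ from cluster 7, at 41.7 ± 5.81 CPM, beyond the spread.

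**Figure D4:**
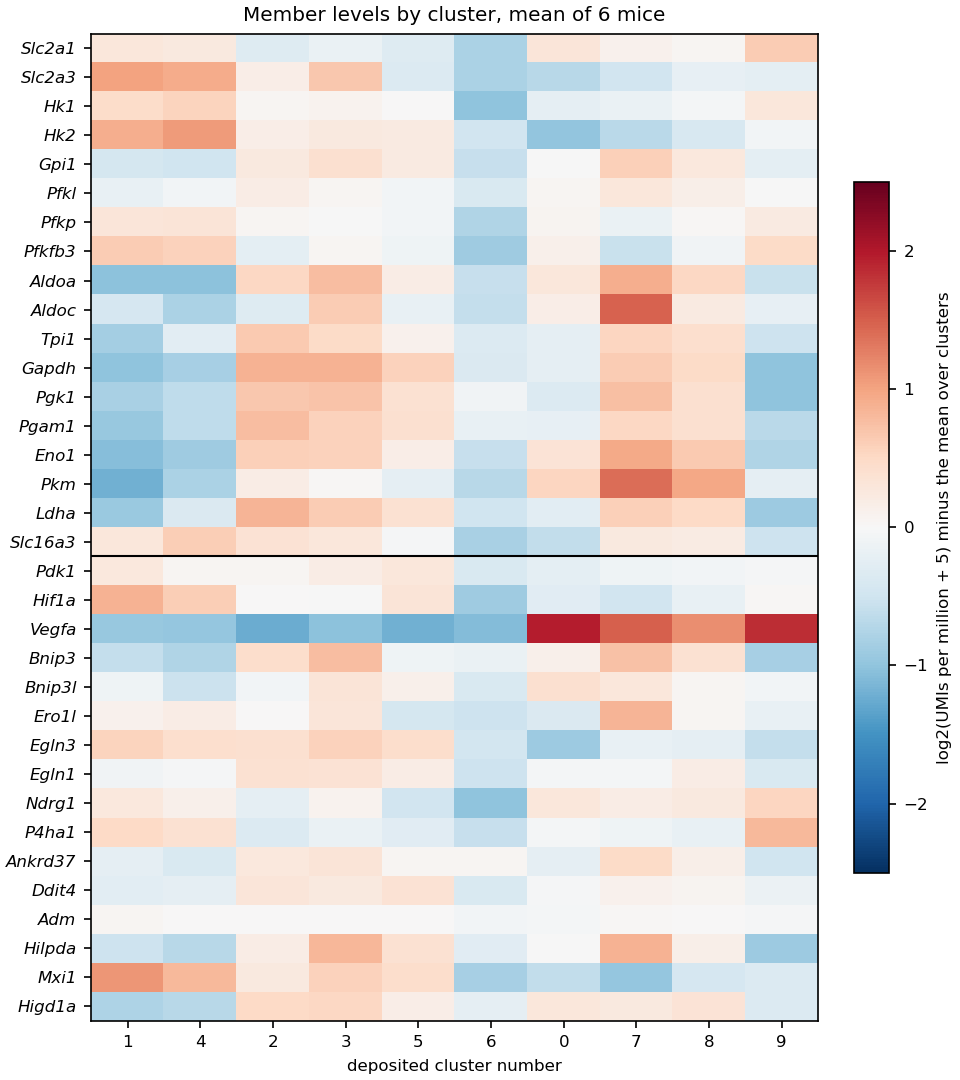
Mean level over 6 mice of each gene in the 10 clusters with at least 30 cells in every mouse, as log2 of CPM plus 5, minus the mean over those clusters; red is above and blue below the gene's own mean, T cell clusters 1 to 5 are on the left, the low-RNA cluster 6 in the middle and NK clusters on the right. The enzymes from Aldoa to Ldha are blue in clusters 1, 4 and 9, and the row of Vegfa separates the NK clusters from the others.

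Myeloid cells were few, with 414 neutrophils, 360 cells labelled monocytes and 127 dendritic cells, and their values vary with small numbers. Neutrophils had more RNA of several hypoxia genes than T cells, as did monocyte-labelled cells of the same cluster, given below. Hilpda was at 1118 ± 949 CPM in neutrophils, Egln3 at 312 ± 162 CPM and Ero1l at 573 ± 310 CPM (SD, n = 6 mice), against 141 ± 25.0, 21.0 ± 4.74 and 79.1 ± 17.8 CPM in T cells. The spread between mice was wide: Hilpda ranged from 394 CPM in control mouse 2 to 2738 CPM in CAL-101 mouse 2, and the groups overlapped. Egln3 was at 238, 114 and 240.5 CPM in neutrophils of control mice, against 263, 490.0 and 529 CPM in those of CAL-101 mice, which did not overlap and were not tested.

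Cells labelled monocytes and dendritic cells had the largest share of glycolysis UMIs, 1.40% and 1.21% of all UMIs pooled over mice, beside 0.686% in T cells and 0.611% in NK cells. These cells also carried melanoma markers, at 0.494% and 0.287% of UMIs, against 0.00055% in T cells. In cluster 12, a group of 118 cells of mixed labels, glycolysis genes gave 2.42% and melanoma markers 1.16% of UMIs. Without cluster 12 and cells with 2 or more melanoma marker UMIs, the glycolysis share was 0.686% in 315 monocyte-labelled cells and 0.623% in 95 dendritic cells.

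The hypoxia share did not fall in the same way in monocyte-labelled cells, at 0.323% before and 0.350% after, while it went from 0.261 to 0.135% in dendritic cells. Monocyte-labelled cells of cluster 10, which holds all the neutrophils, had Hilpda at 1839 CPM and Ero1l at 978 CPM. Those of cluster 11 had them at 179 and 145 CPM. These values are pooled over mice, whereas those of neutrophils above are means over mice. No gene of the lists was called between CAL-101 and control mice in monocyte-labelled cells, where edgeR called 0 of 5906 genes (0%) and 182 had an unadjusted p under 0.05, none of them listed. Neutrophils and dendritic cells had as few as 13 and 11 cells in a mouse and were not compared.

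Single cells gave a view that does not rest on the class averages. T and NK cells with at least 2000 UMIs were thinned to 2000 UMIs each, and cells with a Bnip3 UMI were compared with cells without one, weighted to the same clusters within the same mouse. Bnip3 was used because it responds to hypoxia and has no part in glycolysis. At that depth 2.55 to 5.94% of T cells and 3.36 to 6.46% of NK cells of a mouse had a Bnip3 UMI; every labelled class contained such cells, so no class gave a background level. Cells under that depth, 393 to 828 T cells and 91 to 209 NK cells of a mouse, were left out. The comparison is a description without a test.

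In NK cells the median log2 ratio was 0.77 over the 18 glycolysis genes and 0.68 over the 15 other hypoxia genes, beside -0.08 over all genes compared. Of these, 12 and 9 were higher in all 6 mice, whereas 2.86% of all genes were. Aldoa was at 1220 CPM in NK cells with a Bnip3 UMI and at 619 CPM in those without, a mean log2 ratio of 0.97 ± 0.10 (SD, n = 6 mice). Pgk1 and Tpi1 had ratios of 1.05 ± 0.11 and 1.05 ± 0.14, Ldha 0.77 ± 0.09 and Slc2a1 0.77 ± 0.34. Ankrd37, a HIF target of little known function, was at 40.4 against 13.03 CPM, a ratio of 1.33 ± 0.51.

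T cells gave smaller ratios for most of these genes, with a median of 0.39 for the glycolysis and 0.50 for the hypoxia list, beside -0.03 over all genes. Here 13 of 18 and 9 of 15 genes were higher in all 6 mice, and 3.25% of all genes were. Ero1l was at 155 CPM in T cells with a Bnip3 UMI and at 72.4 CPM in those without, a ratio of 1.03 ± 0.10. Tpi1 and Aldoa had ratios of 0.61 ± 0.17 and 0.60 ± 0.18, and Ldha 0.31 ± 0.20. The difference between T and NK cells was not tested.

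Some genes stood outside this pattern. Hk2 and Pfkfb3 were not raised in either class: their mean log2 ratios were -0.02 and -0.06 in T cells and -0.46 and -0.16 in NK cells, each higher in 2 or 3 of 6 mice. Slc2a3 was higher in all 6 mice in T cells, at 0.38 ± 0.16, and in 3 of 6 in NK cells, at -0.22 ± 0.50. Hif1a had a ratio of 0.09 ± 0.20 in T cells and 0.27 ± 0.15 in NK cells. Across clusters, Bnip3 was lowest in clusters 1, 4 and 9, whereas Hk2, Pfkfb3, Slc2a3 and Hif1a were highest in clusters 1 or 4. Weighting by cluster does not remove differences in cell quality within a cluster. Mitochondrial share and Malat1 were not compared between cells with and without a Bnip3 UMI. Whether cell damage has a part in these ratios was not tested.

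Genes were ranked by ratio if they had at least 20 CPM in cells with a Bnip3 UMI. That limit lets in genes that pass only where they are high, so the ranks are a description. Over 5958 genes in NK cells, the 8 with the largest ratio were Ankrd37, Zfp395, Ero1l, Eif4ebp1, Ndrg1, Pgk1, Tpi1 and Fam162a. Of these 8, 5 are in the lists. Ankrd37 and Zfp395 passed the limit only in cells with a Bnip3 UMI, at 13.03 and 16.7 CPM in those without. In T cells the first 8 of 6149 were Ero1l, Mt1, Hspa1a, Hspa1b, H2-Ab1, Egln3, P4ha1 and Mt2, which include 2 metallothioneins and 2 heat shock chaperones beside 3 listed hypoxia genes; Hspa1a and Hspa1b are near-identical copies whose counts are uncertain. The summed marker lists of melanoma, monocytes and dendritic cells were not higher in T cells with a Bnip3 UMI in more than 3 of 6 mice. Ly6c2, at 662 CPM over all T-labelled cells, makes up most of the monocyte sum, which therefore cannot show macrophage RNA. H2-Ab1, a gene of the dendritic cell list, was at 39.1 against 19.9 CPM, higher in all 6 mice. Neutrophil markers were at 0.00788% against 0.00573%, also higher in all 6. The T cell markers themselves were lower in all 6 mice, at 1.15% against 1.24%, and in NK cells with a Bnip3 UMI the NK cell markers were at 0.469% against 0.505%, higher in 1 of 6.

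In NK cells with a Bnip3 UMI melanoma markers were at 0.0049% against 0.000419% of UMIs, higher in 3 of 6 mice. Without cluster 12 and cells with 2 or more melanoma marker UMIs the medians were 0.75 and 0.67 in NK cells and 0.40 and 0.48 in T cells. Cells with an Egln3 UMI gave weaker ratios in T cells, with medians of 0.17 for glycolysis and 0.20 for hypoxia genes; 4 of 18 and 2 of 15 genes were higher in all 6 mice, and 1.65% of all genes were.

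**Figure D5:**
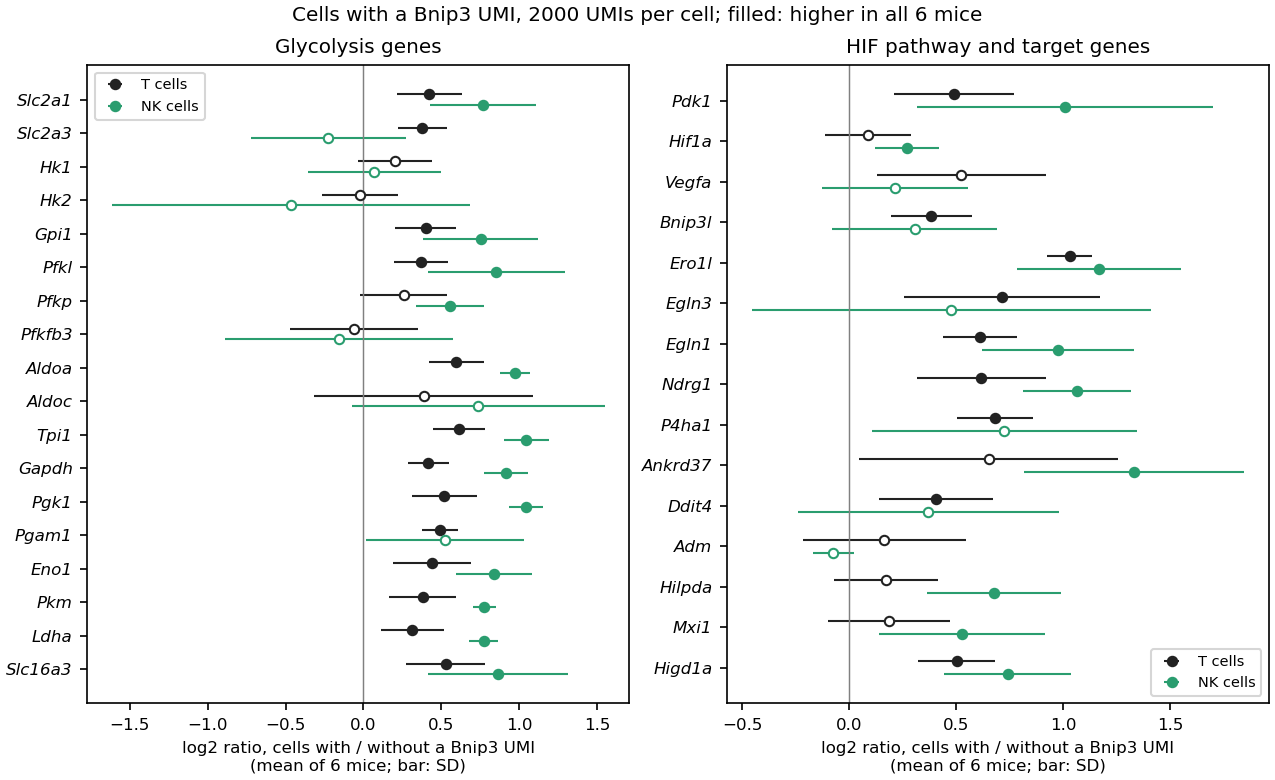
Log2 ratio of each gene between cells with and without a Bnip3 UMI, each cell thinned to 2000 UMIs, as the mean over 6 mice with its SD; T cells are black and NK cells green, and filled symbols were higher in all 6 mice. The enzymes from Aldoa to Slc16a3 lie to the right of 0 in both classes, except that Aldoc and, in NK cells, Pgam1 are unfilled, and Hk2 and Pfkfb3 lie at or left of 0.

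HIF binds DNA at sites with the core ACGTG or GCGTG, so the 250 bases upstream of the annotated starts were searched for both on both strands. RefSeq promoter sequences (build GRCm38.p6) were found for 31 of the 34 genes; Slc2a3, Bnip3l and Ndrg1 were not matched. ACGTG was present in 16.6% of all 32851 promoters, in 42.3% of the 26 promoters of glycolysis genes and in 63.2% of the 19 of hypoxia genes. GCGTG was present in 28.2% of all promoters, in 13 of the 26 and in 11 of the 19, and either of them in 38.6, 80.8 and 78.9%. A palindrome CACGTG holds ACGTG on both strands and was counted as 2 matches. Promoters of 1 gene can overlap, and these matches describe letters, not binding.

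The following promoters are shown because Bnip3 marked the cells compared above and the other genes rose with it or fell in T cells. Each is given 5′ to 3′ on the strand of the gene, ends at the base before the start, and has the matches in capitals, with CACGT and CACGC as the reverse complements of ACGTG and GCGTG. They lie at chr7:138909507-138909756 (minus strand, Bnip3), chr14:45318573-45318822 (minus strand, Ero1l), chr8:45999851-46000100 (minus strand, Ankrd37), chr7:46845554-46845803 (plus strand, Ldha) and chr10:59951771-59952020 (minus strand, Ddit4). Ldha has a second annotated start, whose promoter is not shown and holds 1 match, to GCGTG.
Bnip3: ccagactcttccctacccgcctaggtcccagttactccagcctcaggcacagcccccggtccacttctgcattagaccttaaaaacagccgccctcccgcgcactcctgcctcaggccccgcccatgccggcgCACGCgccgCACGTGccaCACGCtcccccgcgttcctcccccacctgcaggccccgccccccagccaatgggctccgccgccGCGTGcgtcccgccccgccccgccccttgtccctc
Ero1l: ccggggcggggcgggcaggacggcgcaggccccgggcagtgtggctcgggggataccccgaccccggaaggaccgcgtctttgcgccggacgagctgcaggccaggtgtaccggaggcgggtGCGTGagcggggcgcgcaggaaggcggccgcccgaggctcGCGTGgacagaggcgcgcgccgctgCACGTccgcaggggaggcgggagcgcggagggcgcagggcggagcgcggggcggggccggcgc
Ankrd37: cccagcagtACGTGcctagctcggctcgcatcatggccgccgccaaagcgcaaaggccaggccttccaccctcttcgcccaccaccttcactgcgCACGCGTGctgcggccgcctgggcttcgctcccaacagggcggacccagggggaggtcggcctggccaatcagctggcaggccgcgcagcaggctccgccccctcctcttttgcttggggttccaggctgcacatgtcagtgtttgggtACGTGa
Ldha: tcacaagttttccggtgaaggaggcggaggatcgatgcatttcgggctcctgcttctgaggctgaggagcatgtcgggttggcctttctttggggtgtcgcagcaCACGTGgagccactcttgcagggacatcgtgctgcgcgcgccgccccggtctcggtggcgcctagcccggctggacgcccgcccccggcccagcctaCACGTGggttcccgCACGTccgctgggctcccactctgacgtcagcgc
Ddit4: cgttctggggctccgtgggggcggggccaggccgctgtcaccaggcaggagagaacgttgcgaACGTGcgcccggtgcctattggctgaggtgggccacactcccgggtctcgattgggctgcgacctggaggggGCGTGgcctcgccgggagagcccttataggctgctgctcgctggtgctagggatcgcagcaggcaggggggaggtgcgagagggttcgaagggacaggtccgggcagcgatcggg

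Bnip3 thus holds 5 matches, the Ldha promoter shown 5, of which 4 form 2 palindromes, Ankrd37 4, Ero1l 3 and Ddit4 2. Hk2, which was not higher in cells with a Bnip3 UMI, also holds 2 matches to ACGTG, and Tpi1, which was, holds none in this window.

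The other genes of these pathways are counted against the 19.1% of all genes called in T cells and the 4.89% called in NK cells. For single genes of these other lists, here and below, fits without a mouse, within clusters or without some cells were not examined. In T cells, 3 of 20 other glycolysis genes tested were called: the neuronal enolase Eno2 rose by 1.45 on the log2 scale (adjusted p = 0.0085), and the intracellular transporter Slc2a8 and the regulator Pfkfb1 fell by 0.67 and 0.30 (adjusted p = 0.0038 and 0.037). None of 17 was called in NK cells by edgeR, with 5 at an unadjusted p under 0.05. Of 12 genes for pyruvate entry into mitochondria, the pyruvate dehydrogenase regulators Pdpr, Pdp1 and Pdk2 fell in T cells by 0.41, 0.39 and 0.93, and Pdk3 rose by 0.21.

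A pair of genes that glucose induces through the factor MondoA were called lower in both classes. Txnip, which restrains glucose uptake, fell by 0.77 in T cells and by 0.53 in NK cells on the log2 scale (adjusted p = 0.048 and 0.040), and its relative Arrdc4 fell by 1.37 and 0.64 (adjusted p = 0.016 and 0.015). These genes belong to a list of 13 on MYC and glucose sensing, of which 2 rose and 3 fell in T cells and 0 rose and 2 fell of 12 tested in NK cells. Mtor fell by 0.30 in T cells, and Mlx and Max, partners of glucose-sensing and MYC transcription factors, rose by 0.31 and 0.24.

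Within the HIF pathway list, 3 of 15 genes rose and 2 fell in T cells. Epas1, which encodes HIF-2alpha, fell by 0.87 (adjusted p = 0.0026), and Arnt, the shared partner of the HIF alpha subunits, fell by 0.24 (adjusted p = 0.033). Its paralog Arnt2 rose by 1.57 (adjusted p = 0.0035), and the ubiquitin ligase genes Siah2 and Rbx1 rose by 0.33 and 0.21. In NK cells Rbx1 and Eloc, 2 parts of the complex that degrades HIF1A, rose by 0.25 and 0.26, and none of the 14 tested fell.

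Of 34 other hypoxia targets tested in T cells, 3 rose and 7 fell. Ier3 fell by 0.84, Selenbp1 by 1.86 and the glycogen branching enzyme Gbe1 by 0.44 on the log2 scale, and Plod2, a lysyl hydroxylase, and Ypel2 rose by 0.48 and 0.84 (adjusted p = 0.00054 to 0.010). Of 32 tested in NK cells, Mif rose by 0.25 and Pnrc1 fell by 0.40. The median log2 fold change of this list was -0.10 in T cells and -0.0050 in NK cells.

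In the branches off glycolysis most genes had a log2 fold change above 0. The median over 14 genes was 0.16 in T cells, with 12 above 0 and 9 at an unadjusted p under 0.05, and 0.24 in NK cells, with 13 above 0 and 8 at an unadjusted p under 0.05. Over all genes 34.1% in T cells and 22% in NK cells had an unadjusted p under 0.05. In T cells Psat1 of serine synthesis and Rpia of the pentose phosphate pathway rose by 0.46 and 0.34, and the pentose phosphate enzyme Pgls fell by 0.27. In NK cells Psat1 rose by 0.56 and Pgls fell by 0.27. No other gene of this list was called, beside 19.1% of all genes called in T cells and 4.89% in NK cells. Proliferation genes, fitted beside these lists because dividing cells use glycolysis, rose in 11 of 16 cases in T cells and 12 of 16 in NK cells, and none fell in either class. Without cycling cluster 2, the T cell log2 fold changes of Ndrg1, Ero1l, Slc2a3 and Pkm were -0.90, -0.62, -0.64 and -0.46, all called, while Pfkl, Aldoc and Vegfa were not (adjusted p = 0.072, 0.056 and 0.064).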

How the data were processed

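Single-cell RNA from 6 tumours was analysed, and the antibody tags of the same cells were not used. The authors deposited raw UMI counts per gene and cell. The file headers name Cell Ranger 7.1.0, and the submitters' processing notes name mm10 and Seurat. Cell labels and cluster numbers are the authors', per the deposited tables. Not given in the sources used here were the cell filters, annotation release and way of labelling, and no doublet caller was run. Members, pathway lists and tests were chosen with earlier results of these data known.

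Counts were summed per mouse and class or cluster. The sums went through edgeR 4.0.16 in R 4.3.3, with its quasi-likelihood test, TMM scaling, filterByExpr and Benjamini-Hochberg adjustment over all genes tested at a threshold of 0.05. Clusters needed 30 cells and other classes 20 in every mouse. The difference between T and NK effects used limma 3.58.1 on log2 CPM with a prior count of 2. Alternatives were other size factors, no filter, DESeq2 1.42.0, a replicate block, left-out mice and left-out cells. Those on melanoma and myeloid marker UMIs were added after seeing the data. Ratios between cells with and without a Bnip3 or Egln3 UMI added 5 CPM before the log2.

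Values in every mouse are printed for genes called in T or NK cells, those with the largest or smallest T to NK ratio of their list, and 10 named in the plan of the tests. Of other lists up to 5 called genes are named by p. Beside Bnip3 the 8 genes with the largest ratio are named, at 20 CPM or more in cells with a Bnip3 UMI. Neutrophil Egln3 and the genes called in single clusters were named after their values were seen.

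Depth was 53687665 to 87764290 UMIs per mouse in T cells and 5512966 to 38372671 in NK cells. On simulated counts with 200 changed genes, a log2 change of 1 was recovered in 100% of 50 genes in T cells (16734 genes, 8 wrongly called) and in 96% in NK cells (14028 genes, 7 wrongly called). A change of 0.585 was recovered in 44% and 40% of 100. The simulation gave all genes the same dispersion, had no mouse that stood apart and changed only genes above a count limit. These rates therefore need not hold for the real counts. The mice of a group are separate animals, so p-values measure the spread between them. The number of T cell cultures behind each group was not known here. If mice of a group shared a culture, the spread between cultures is not measured. The gene name table matched 32158 of the 32285 identifiers. Sums and figures were made in Python 3.11.15 with pandas 2.3.3, numpy 2.4.6 and matplotlib 3.10.9.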

Additional observations from a re-analysis of the deposited data

How the results depend on the processing

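The replicate block (the mouse number shared by the groups as a term) gave 1495 genes called in T cells against 3194 in the fit without it, with 1 glycolysis and 2 hypoxia genes (Slc2a3, Ero1l and Ndrg1, adjusted p = 0.043, 0.034 and 0.010). In NK cells it left 0 glycolysis and 0 hypoxia genes called, in the T and NK difference 0 genes, and within clusters 13 pairs of gene and cluster. Under the block the log2 fold change of Egln3 in T cells was 0.0035 and that of Bnip3 in NK cells 0.0022. Deviations of mice with the same number correlated at -0.25, -0.24 and 0.0051 in T cells and at 0.07, -0.02 and -0.09 in NK cells. The numbers were therefore taken only to name mice. With so few mice per group, these correlations cannot exclude that mice of the same number were processed together.

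Leaving out 1 mouse at a time gave 1429 (without control mouse 3) to 3850 (without control mouse 2) genes called in T cells, with 1 to 10 glycolysis and 2 to 7 hypoxia genes. In NK cells it gave 4 (without CAL-101 mouse 3) to 1589 (without control mouse 2), with 0 to 3 glycolysis and 0 to 3 hypoxia genes. The T and NK difference gave 0 (without control mouse 2) to 50 (without CAL-101 mouse 1), the clusters 11 to 62 pairs and monocyte-labelled cells 0 to 2 genes. Egln3 reversed in T cells, from -0.28 to 0.13, and in NK cells, from -0.63 to 0.076, and Bnip3 in NK cells, from -0.14 to 0.19.

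In NK cells 686 genes were called, and 1323 without a filter, 213 in clusters 0, 7, 9 and 13 and 345 without cluster 8. Glycolysis genes called there numbered 1 without cells over 20% mitochondrial UMIs or under 1000 UMIs, and 0 without the top 5% of cells by UMIs, without melanoma marker cells and cluster 12, in clusters 0, 7, 9 and 13, or without cluster 8. Hypoxia genes called numbered 3 without a filter, 2 with DESeq2, and 0 without the top 5% or without cluster 8. The T and NK difference with a prior count of 0.5 called 79 genes. Bnip3 in NK cells reversed with DESeq2 (0.0096), in clusters 0, 7, 9 and 13 (0.00058) and without cluster 8 (0.033), and Egln3 in T cells without cycling cluster 2 (0.015). Unweighted by cluster, the median glycolysis ratio of cells with a Bnip3 UMI was 0.85 in NK and 0.51 in T cells, and without cells holding melanoma or myeloid marker UMIs the hypoxia median of Egln3 cells in T cells was 0.064. The causes were not tested. Cells with an Egln3 UMI were too few in NK cells, and the Bnip3 comparison there without marker cells was not run.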
